A study of Saccharomyces cerevisiae with 12 samples.

Results

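The alcohol dehydrogenase family of budding yeast was followed in RNA-seq and ribosome profiling libraries of cultures that had or had not been exposed to radicicol, an inhibitor of the chaperone Hsp90. The 8 genes ADH1, ADH2, ADH3, ADH4, ADH5, ADH6, ADH7 and SFA1 were taken by their systematic names, and all 8 were present among the 7130 gene identifiers of the count tables. By the protocol, 3 colonies were each grown overnight, then for another night in medium with 10 µM radicicol or without it, diluted to an OD600 of 0.001 and grown for a further 24 h before harvest by filtration. The 4 groups were untreated RNA, radicicol pre-treated RNA, untreated ribosome-protected fragments (footprints) and radicicol pre-treated footprints, each with 3 libraries. RNA was poly(A)-selected and fragmented, and footprints came from monosomes after RNase I digestion. The strain's genotype is not given in the sources used here. The annotation counted against held His and LacZ reporter features on an added plasmid; they took at most 1.41% of the counts in untreated RNA and at most 1.73% in pre-treated RNA, and 0.86% and 1.00% in footprints. Every pre-treated library was above the untreated libraries of its kind, and the part of this difference in the results was not tested. Libraries held between 737922 counts (untreated RNA replicate 3) and 2481336 counts, and the other 11 held at least 1155966.

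Alcohol dehydrogenases interconvert aldehydes or ketones and alcohols with NAD(H) or NADP(H). In fermenting yeast, pyruvate is decarboxylated to acetaldehyde, and Adh1 reduces the acetaldehyde to ethanol, which returns the NADH of glycolysis to NAD+. Adh2 runs the reaction towards acetaldehyde when ethanol is the carbon source, and its gene is repressed by glucose and activated by Adr1. Adh3 is the mitochondrial isozyme, which takes part in moving redox equivalents across the inner membrane, and Adh5 is a minor isozyme close to Adh1. Adh4 belongs to a separate, iron-activated enzyme family. Adh6 and Adh7 are NADPH-dependent reductases of branched and aromatic aldehydes, and Sfa1 oxidises the glutathione adduct of formaldehyde and also handles long-chain alcohols. In zinc-poor medium the regulator Zap1 is known to raise ADH4 and to lower ADH1 and ADH3.

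Each gene was a single exon feature and overlapped no other annotated feature on either strand (coordinates R64-1-1). ADH1 (YOL086C) lies on chromosome XV at 159548 to 160594 on the minus strand, and ADH2 (YMR303C) on chromosome XIII at 873291 to 874337, also on the minus strand. ADH3 (YMR083W) and ADH6 (YMR318C) share chromosome XIII with it, at 434788 to 435915 and at 911061 to 912143. ADH4 (YGL256W) is on chromosome VII at 15159 to 16307, ADH5 (YBR145W) on chromosome II at 533762 to 534817, ADH7 (YCR105W) on chromosome III at 309070 to 310155 and SFA1 (YDL168W) on chromosome IV at 159604 to 160764. Reads that mapped to more than 1 place were not counted, so stretches that ADH1 shares with ADH2 or another copy are missing from both. The levels of these near-identical genes are therefore uncertain, and those of the similar pair ADH6 and ADH7 may be too.

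ADH1 was by far the most abundant transcript of the family, and ADH2 and ADH7 were near the bottom. On the scale of CPM (read counts relative to library size, with TMM scaling factors) per kilobase of feature, untreated RNA stood at 3847 ± 342 (SD, n = 3) for ADH1 and 335 ± 14.5 for ADH3. ADH5 followed at 198 ± 22.3, SFA1 at 186 ± 12.2, ADH4 at 75.9 ± 27.3 and ADH6 at 51.5 ± 7.87. ADH7 reached 11.2 ± 3.43 and ADH2 7.31 ± 2.79. Neighbours in this order whose 3 libraries overlapped were ADH5 and SFA1, ADH4 and ADH6, and ADH7 and ADH2; the other neighbours were apart. By mean level per kilobase ADH1 ranked 36 among the 6319 genes with a count in untreated RNA, and 77 among 6400 in pre-treated RNA.

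Footprints gave nearly the same order. Untreated footprints per kilobase were 3203 ± 93.3 CPM for ADH1, 273 ± 12.4 for ADH3, 207 ± 9.13 for SFA1 and 126 ± 15.4 for ADH5. ADH4 had 86.1 ± 28.1, ADH6 40.7 ± 13.7, ADH7 7.52 ± 3.22 and ADH2 4.02 ± 1.71. SFA1 thus stood above ADH5 in footprints, with ranges apart in both treatments, while in RNA these 2 genes overlapped. ADH5 and ADH4 were apart in untreated footprints and overlapped in pre-treated ones, and ADH7 and ADH2 overlapped in both. ADH1 ranked 49 of 5805 genes in untreated and 93 of 5817 in pre-treated footprints.

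**Figure D1:**
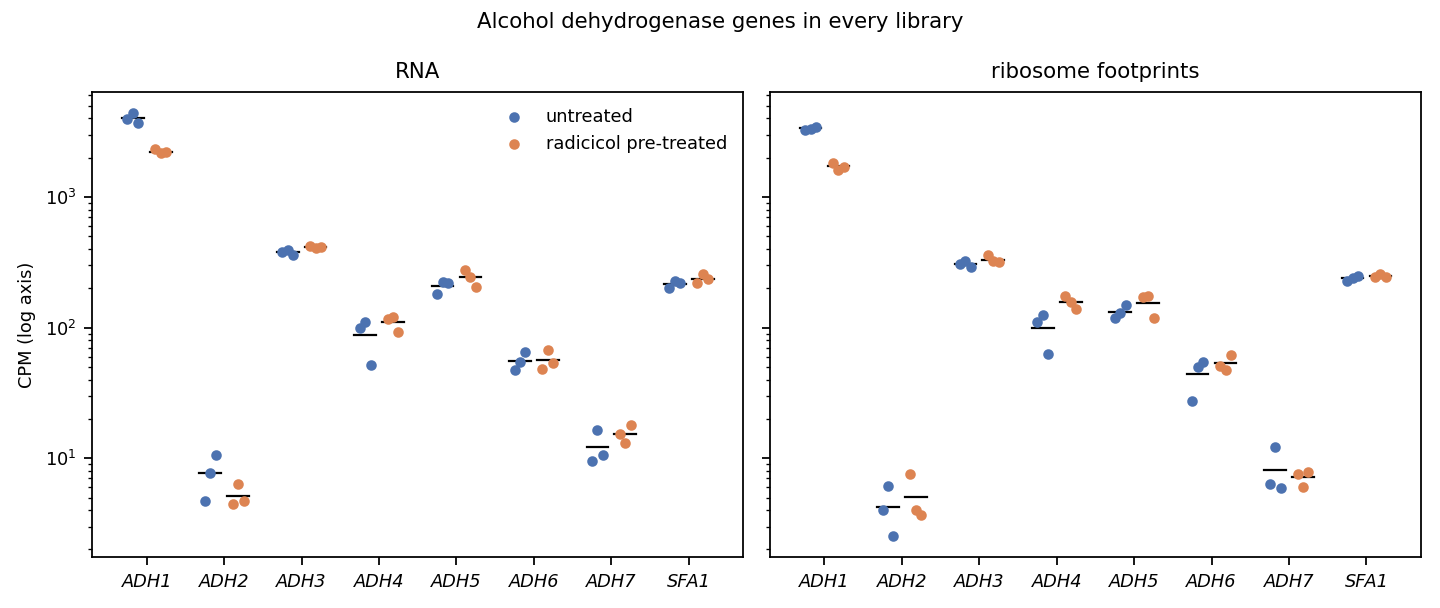
CPM of each gene in every RNA library (left) and footprint library (right), on a log axis; points are libraries and bars are means of 3. In both panels the untreated and pre-treated points of ADH1 are apart, with means of 4028 and 2227 CPM in RNA and 3354 and 1719 CPM in footprints.

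ADH1 was the gene of the family that passed the test, an adjusted p under 0.05 over all genes. Its RNA stood at 3960, 4415 and 3709 CPM in the untreated libraries and at 2322, 2164 and 2196 CPM after radicicol. Every pre-treated library was below every untreated one. ADH1 RNA fell by 0.86 on the log2 scale (SE 0.10), or 1.81-fold with a 95% interval from 1.56 to 2.10, with an adjusted p = 1.33e-06 in edgeR's quasi-likelihood test. By the size of its fall it was 34th of the 338 genes called lower in RNA. In this comparison 13.2% of the 5578 genes tested were called, 7.17% higher and 6.06% lower, and the median log2 change over all genes was -0.0024. As no spike-in was described, the change is relative to the other genes of a library, and less RNA per cell cannot be told apart from fewer cells that express the gene.

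Footprints on ADH1 fell too. They stood at 3257, 3352 and 3453 CPM without the drug and at 1837, 1620 and 1698 CPM after it, again with no overlap. The log2 change was -0.96 (SE 0.08, adjusted p = 4.03e-10), or 1.95-fold lower with a 95% interval from 1.75 to 2.17. It was 23rd of the 247 genes called lower in footprints, where 13.4% of 5090 genes were called, 8.53% higher and 4.85% lower. In single libraries ADH1 took between 0.333% and 0.354% of the counts in untreated footprints and between 0.158% and 0.178% in pre-treated ones.

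None of the other 7 genes passed in RNA, and none of the 6 others that could be tested passed in footprints. All 8 genes passed the filter on low counts in RNA and 7 of 8 in footprints, where ADH2 did not. Thus 1 of 8 members was called in RNA and 1 of 7 in footprints, close to the background shares of 13.2% and 13.4% of all genes. At an unadjusted p under 0.05, which 26.2% of all genes reached in RNA and 25.1% in footprints, 0 of the other 7 members stood in RNA and 1 of the other 6, ADH4, in footprints. The median log2 change of the members was 0.13 in RNA and 0.11 in footprints, and 6 of 8 RNA changes and 5 of 7 footprint changes were above 0. The 2 groups of libraries did not overlap for 2 of the 8 genes in RNA, ADH1 and ADH3, and for 2 of the 7 in footprints, ADH1 and ADH4. Over all genes tested, the groups were apart for 30% in RNA and 29.4% in footprints.

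**Figure D2:**
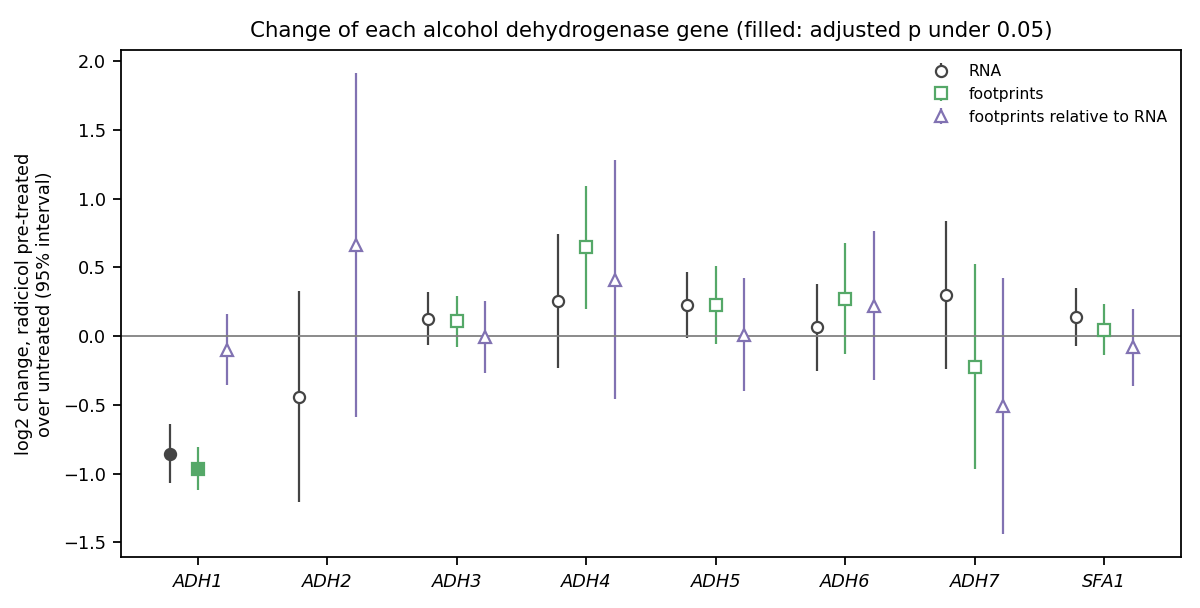
Fitted log2 change of each gene after radicicol in RNA, in footprints and in footprints relative to RNA, with 95% intervals; filled symbols have an adjusted p under 0.05. The RNA and footprint changes of ADH1, -0.86 and -0.96, are the filled symbols, and ADH2 was not tested in footprints.

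ADH2, the ethanol-oxidising isozyme, was close to the limit of detection. Its RNA counts were 9, 15 and 8 in the untreated libraries and 11, 14 and 10 in the pre-treated ones, or 4.72, 7.67 and 10.6 CPM against 4.44, 6.31 and 4.70 CPM. The 2 groups overlapped, and the log2 change was -0.44 (SE 0.37, adjusted p = 0.486) with a 95% interval from -1.21 to 0.33. Footprint counts on ADH2 were 5, 9 and 3 without the drug and 11, 6 and 6 after it. Without untreated replicate 1 the RNA change was -0.73, and without untreated replicate 3 it was -0.28, and neither passed. A count of 3 corresponds to between 1.21 and 4.07 CPM across the libraries. At these counts the data cannot tell no change of ADH2 RNA from a change within the interval above. Per unit length, ADH2 made up between 0.119% and 0.284% of the sum of ADH1 and ADH2 in untreated RNA and between 0.191% and 0.291% in pre-treated RNA.

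ADH3, the mitochondrial isozyme, stayed within a narrow range. Its RNA stood at 378, 394 and 362 CPM in untreated libraries and at 420, 408 and 414 CPM in pre-treated ones, and the groups were just apart. The log2 change of 0.13 (SE 0.09, adjusted p = 0.415) did not pass, and its 95% interval ran from -0.07 to 0.32. Footprints on ADH3 were 309, 322 and 294 CPM against 357, 322 and 319 CPM, with overlapping groups and a fitted log2 difference of 0.11 (SE 0.09, adjusted p = 0.508).

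ADH4, the member of the iron-activated family, had the highest fitted footprint change of the family, but it did not pass in the main test. Its footprints stood at 110, 124 and 62.5 CPM in the untreated libraries and at 174, 159 and 139 CPM after radicicol, with every pre-treated library above every untreated one. The log2 change was 0.65 (SE 0.20, adjusted p = 0.0632), with a 95% interval from 0.20 to 1.09 that takes no account of the number of genes tested. The value depends on the untreated libraries: without replicate 3, where ADH4 was lowest, it was 0.42 with an adjusted p = 0.0431, and without replicate 2, where ADH4 was highest, it was 0.85 with an adjusted p = 0.00823. It did not pass when untreated replicate 1 was left out (adjusted p = 0.193). Leaving out a pre-treated library gave an adjusted p = 0.170 for replicate 1, 0.136 for replicate 2 and 0.0538 for replicate 3. DESeq2 gave 0.66 with an adjusted p = 0.0110. A fit with the replicate number as a block also passed, and its value is given with the alternatives below.

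In RNA, ADH4 stood at 99.7, 111 and 51.5 CPM in the untreated libraries and at 117, 121 and 93.1 CPM in the pre-treated ones. The groups overlapped, and the log2 change of 0.26 (SE 0.22, adjusted p = 0.501) did not pass. Replicate 3 was the lowest for ADH4 among the untreated libraries and among the pre-treated ones, in both kinds of library. Without untreated replicate 3 the RNA change was 0.07, and without untreated replicate 2 it was 0.42, and neither passed.

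ADH5, the minor isozyme close to Adh1, had RNA levels of 182, 226 and 219 CPM without the drug and 277, 246 and 206 CPM after it. The groups overlapped, and the log2 change was 0.23 (SE 0.12, adjusted p = 0.226), with a 95% interval from -0.02 to 0.47. Its footprints were 118, 129 and 150 CPM against 173, 175 and 118 CPM, with a log2 change of 0.22 (SE 0.14, adjusted p = 0.334). Pre-treated replicate 3 was the lowest of all 6 footprint libraries, just under untreated replicate 1. Without it, the change was 0.40 with an adjusted p = 0.0332.

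The NADPH-dependent reductase genes ADH6 and ADH7 showed no called change. By mean level per kilobase, ADH6 ranked 2840 and ADH7 5222 among the 6319 genes with a count in untreated RNA. ADH6 RNA ranged from 47.7 to 64.7 CPM in untreated and from 48.4 to 67.6 CPM in pre-treated libraries, with a log2 change of 0.06 (SE 0.15, adjusted p = 0.835). Footprints on ADH6 ranged from 27.2 to 54.9 CPM and from 47.2 to 61.5 CPM, with a log2 change of 0.27 (SE 0.19, adjusted p = 0.423). Without untreated replicate 1, the lowest footprint library, that change was 0.03, and without untreated replicate 3, the highest untreated one, it was 0.44. The groups overlapped in both kinds of library. ADH7 RNA ranged from 9.44 to 16.4 CPM and from 13.1 to 17.9 CPM (log2 0.30, SE 0.26, adjusted p = 0.506). That value was 0.07 without untreated replicate 1 and 0.65 without untreated replicate 2. Its footprint counts were between 7 and 18 in a library, and the log2 change of -0.22 (SE 0.36, adjusted p = 0.779) had a 95% interval from -0.97 to 0.52.

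SFA1, the formaldehyde dehydrogenase gene, showed no called change. Its RNA stood at 200, 228 and 219 CPM in untreated libraries and at 219, 259 and 234 CPM in pre-treated ones, with overlapping groups. The log2 change in RNA was 0.14 (SE 0.10, adjusted p = 0.420). Footprints on SFA1 were 230, 240 and 251 CPM against 244, 256 and 243 CPM, with a fitted log2 difference of 0.05 (SE 0.09, adjusted p = 0.822) and a 95% interval from -0.14 to 0.23.

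The make-up of the family therefore differed between the treatments mainly through ADH1. Per unit length, ADH1 made up between 80.8% and 82.1% of the family's RNA counts in untreated libraries and between 67.3% and 69.6% in pre-treated ones. In footprints its share went from between 80.3% and 81.8% to between 64.2% and 67.2%. The share of ADH3 in RNA went from 7.13% ± 0.288 to 11.9% ± 0.286 (SD, n = 3) while its CPM changed little. The ratio of ADH1 to ADH3 counts was between 10.3 and 11.2 in untreated RNA and between 5.30 and 5.53 in pre-treated RNA, and it was between 10.4 and 11.7 and between 5.03 and 5.33 in footprints. The sum of all 8 genes was 4994 ± 415 CPM in untreated and 3309 ± 104 CPM in pre-treated RNA, and 4190 ± 113 and 2677 ± 151 CPM in footprints. The 7 genes other than ADH1 summed to between 922 and 1038 CPM in untreated RNA and between 1024 and 1121 CPM in pre-treated RNA, which overlap. In footprints they summed to between 805 and 884 CPM and between 891 and 1015 CPM, which do not. Such sums over chosen genes carry no test.

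**Figure D3:**
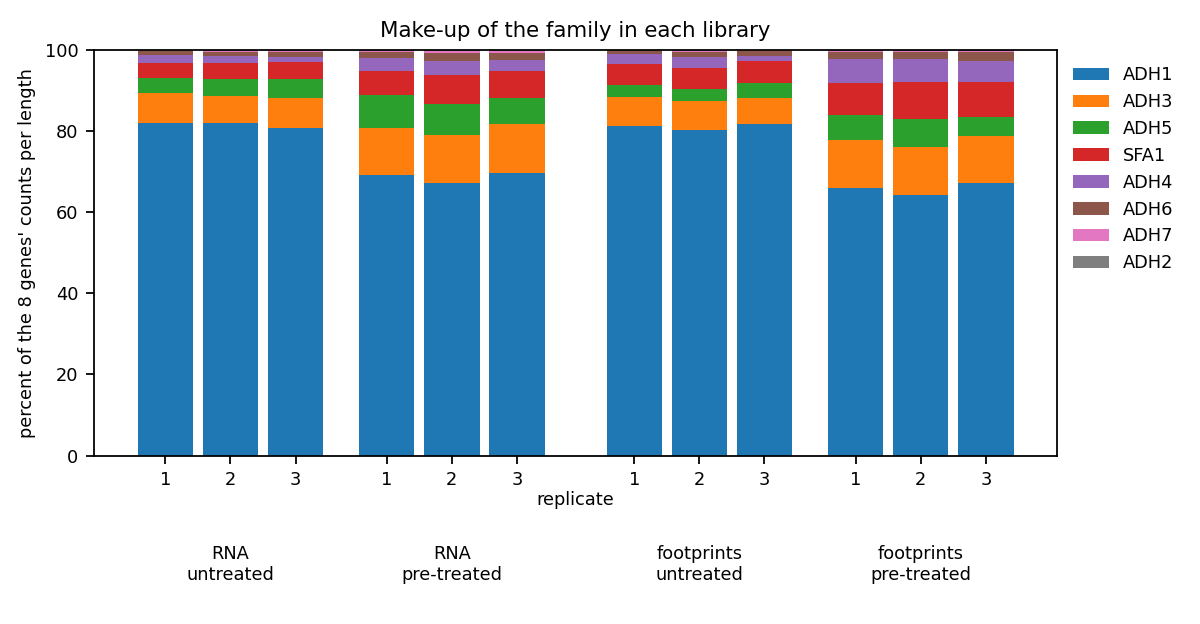
Share of each gene in the family's counts per unit length, in percent, for each of the 12 libraries. ADH1 takes at least 80.3% in each untreated library and at most 69.6% in each pre-treated one.

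Translational efficiency, the ratio of footprints to RNA in a culture, was not called changed for any member. The comparison asked whether ribosome loading per transcript differed after radicicol, and the test asked, over the 12 libraries together, whether the radicicol effect differs between footprints and RNA (the interaction). Of 5552 genes, 0.018% were called, a single gene, HAC1, which lies outside the family and was named after its value was seen; 7.91% had an unadjusted p under 0.05. Of the 8 members 0 were called by edgeR, and 0 had an unadjusted p under 0.05. The change of ADH1 was -0.10 (SE 0.13, adjusted p = 0.895) with a 95% interval from -0.36 to 0.16 on the log2 scale. ADH3 had -0.0070 (SE 0.13) and ADH5 0.0098 (SE 0.20), and SFA1 had -0.08 (SE 0.14).

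The members differed in their level of translational efficiency, given here as log2 ratios with the median gene at 0. ADH4 had the highest mean ratio of the family in both treatments, at 0.56, 0.60 and 0.72 in the untreated cultures and 1.02, 0.84 and 1.00 in the pre-treated ones. These 2 sets did not overlap. Ratios did not overlap for 2 of the 8 members, ADH4 and ADH7, and for 15.3% of all genes tested. The interaction for ADH4 was 0.41 (SE 0.38, adjusted p = 0.848), and a model with a term for each culture gave 0.35 (SE 0.16, adjusted p = 0.463). SFA1 came next in untreated cultures at 0.59 ± 0.07 (SD, n = 3), with 0.50 ± 0.08 after radicicol. ADH1 stood at 0.17 ± 0.16 and 0.06 ± 0.03, ADH3 at 0.14 ± 0.01 and 0.12 ± 0.08, and ADH5 below the median gene at -0.22 ± 0.13 and -0.22 ± 0.17.

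Among the lowest genes of the family, the ratios of ADH6 and ADH2 were wide. ADH6 spread from -0.39 to 0.31 in untreated cultures and from -0.06 to 0.61 in pre-treated ones, and ADH2 from -1.48 to 0.23 and from -0.12 to 1.21. ADH7 had -0.10, 0.03 and -0.38 in untreated cultures and -0.53, -0.60 and -0.72 in pre-treated ones, which did not overlap. Its interaction was -0.51 (SE 0.46, adjusted p = 0.836), and these ratios rest on 7 to 18 footprints in a library.

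**Figure D4:**
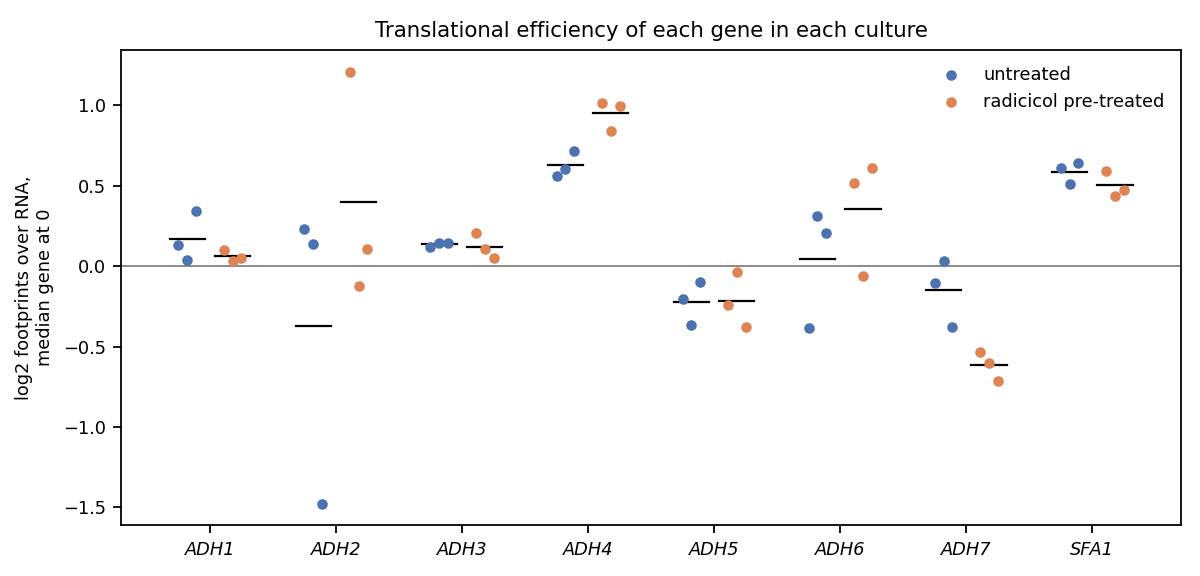
Log2 ratio of footprints to RNA for each gene and culture, with the median gene at 0; bars are means of 3 cultures. ADH1, ADH3, ADH4 and SFA1 lie above the median gene in all 6 cultures, while ADH5 lies below it in all 6.

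Among the enzymes that act just before or beside the alcohol dehydrogenases, genes moved in both directions. The counts of each list stand beside shares over all genes of 7.17% higher and 6.06% lower in RNA, and of 8.53% higher and 4.85% lower in footprints. In the list of pyruvate decarboxylation and cytosolic NADH reoxidation, 3 of 12 genes rose and 3 fell in RNA, and 4 rose and 2 fell in footprints, with median log2 changes of 0.03 and 0.14. PDC5, a minor pyruvate decarboxylase gene whose enzyme supplies the acetaldehyde, rose by 3.13 (SE 0.11) in RNA and 3.58 (SE 0.09) in footprints. GPP1, a glycerol phosphatase gene, rose by 0.55 (SE 0.10) and 0.73 (SE 0.12). GUT2, the mitochondrial glycerol phosphate dehydrogenase gene, fell by 0.73 (SE 0.10) in RNA and by 0.74 (SE 0.08) in footprints, and NDE2, an external NADH dehydrogenase gene, fell by 0.53 (SE 0.10) and by 0.66 (SE 0.11).

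Downstream of acetaldehyde, genes were lower or not called. In the list of acetaldehyde oxidation and acetyl-CoA synthesis, 0 of 13 rose and 5 fell in RNA, and 0 of 12 rose and 3 fell in footprints, with medians of -0.19 and -0.12. ACS1, the acetyl-CoA synthetase gene of non-fermentative growth, fell by 0.52 (SE 0.16) in RNA and by 1.71 (SE 0.28) in footprints. Its footprints were low, at 23.6 ± 3.55 CPM in untreated and 7.13 ± 1.73 CPM in pre-treated libraries (SD, n = 3). ALD5, a mitochondrial aldehyde dehydrogenase gene, fell by 0.45 (SE 0.12) and by 0.39 (SE 0.09), and the carnitine acetyltransferase gene CAT2 fell by 0.41 (SE 0.12) and by 0.66 (SE 0.14). YAT1, another carnitine acetyltransferase gene, fell by 0.54 (SE 0.15) in RNA and had -0.34 (SE 0.23, adjusted p = 0.407) in footprints.

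Among targets of Adr1, the activator of ADH2, all called genes were lower. Of 14 genes tested in RNA 8 fell and 0 rose, and of 13 in footprints 6 fell and 0 rose. The median log2 changes were -0.42 and -0.50, beside -0.0024 and -0.0087 over all genes. The RNA calls ACS1, ALD4 and GUT2 were already counted in the lists above, as were the footprint calls ACS1 and GUT2. ALD4 is named here only for this overlap. Besides ACS1, the lactate transporter gene JEN1 fell by 0.95 (SE 0.13) in RNA and by 1.52 (SE 0.29) in footprints. The peroxisomal genes POX1, an acyl-CoA oxidase gene, and SPS19, a dienoyl-CoA reductase gene, fell by 0.95 (SE 0.20) and by 0.76 (SE 0.13) in RNA, and by 0.93 (SE 0.21) and by 0.82 (SE 0.16) in footprints.

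In the list of Zap1 targets and zinc homeostasis, 3 of 18 genes rose and 3 fell in RNA, and 3 rose and 0 fell in footprints, with medians of -0.07 and 0.04. ZPS1, a gene induced at low zinc, rose by 1.87 (SE 0.15) in RNA and 2.33 (SE 0.12) in footprints, and MCD4, of glycolipid anchor synthesis, rose by 0.61 (SE 0.19) and 0.82 (SE 0.20). IZH1 and IZH4, membrane protein genes of zinc metabolism, fell by 0.71 (SE 0.11) and by 0.70 (SE 0.22) in RNA. In footprints they had -0.29 (SE 0.11, adjusted p = 0.0854) and -0.73 (SE 0.38, adjusted p = 0.240). The genes next to the members on their chromosomes included 10 that could be tested in each kind of library. Of these, 0 were called in RNA and 1 in footprints, against 13.2% and 13.4% of all genes. The called one was ZRT1, the high-affinity zinc transporter gene, which lies 4670 bases beyond ADH4, also stands in the zinc list and was singled out after its values were seen. In RNA the change of ZRT1 was 0.09 (SE 0.10, adjusted p = 0.617), and in footprints the gene rose by 0.46 (SE 0.08, adjusted p = 0.000139).

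The fusel alcohol pathway, in which amino acids are transaminated, decarboxylated and reduced to alcohols by several of these dehydrogenases, had called genes in the upward direction. Of 13 genes tested in RNA, 7 rose and 0 fell, and of 12 in footprints, 8 rose and 0 fell, with medians of 0.42 and 0.57. PDC1, PDC5 and PDC6, the similar pyruvate decarboxylase genes, stand in this list and in that of pyruvate decarboxylation; all 3 are among its footprint calls, and PDC5 and PDC6 among its RNA calls. PDC1 and PDC6 were named after their values were seen, and reads shared among the 3 copies were not counted. The aromatic aminotransferase gene ARO8 rose by 0.65 (SE 0.10) and 0.97 (SE 0.08). The branched-chain aminotransferase gene BAT2 rose by 0.62 (SE 0.11) and 0.94 (SE 0.11), and PDR12, a transporter gene for the organic acids that form when the aldehydes are oxidised instead, rose by 0.92 (SE 0.10) and 0.89 (SE 0.10).

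Other alcohol and aldehyde reductases had called genes in both directions in RNA and higher ones in footprints. Of 18 tested in RNA, 1 rose and 3 fell, and of 14 in footprints, 3 rose and 0 fell, with medians of 0.0041 and 0.10. OYE2, an NADPH oxidoreductase gene, rose by 0.41 (SE 0.11) in RNA and 0.42 (SE 0.08) in footprints, and ARI1, an aldehyde reductase gene, rose by 0.55 (SE 0.10) in footprints, with 0.19 (SE 0.11, adjusted p = 0.275) in RNA. ZTA1, a quinone oxidoreductase gene, fell by 0.34 (SE 0.11) in RNA, with -0.19 (SE 0.09, adjusted p = 0.184) in footprints, and AAD10, a putative aryl alcohol dehydrogenase gene, fell by 0.46 (SE 0.10) in RNA and was too low to test in footprints. AAD10 belongs to a family of near-identical copies, so its count is uncertain. In the list of formaldehyde and thiol metabolism, which surrounds Sfa1, 2 of 10 rose and 1 fell in RNA, and 1 rose and 1 fell in footprints, with medians of 0.03 and 0.02. GSH1, of glutathione synthesis, rose by 0.69 (SE 0.10) and 0.50 (SE 0.09), and GSH2, the next enzyme's gene, rose by 0.51 (SE 0.12) in RNA, with 0.39 (SE 0.14, adjusted p = 0.0604) in footprints. The glutathione transferase gene GTT1 fell by 0.61 (SE 0.09) and by 0.42 (SE 0.09). For translational efficiency edgeR called 0 of the 92 genes tested from the 7 lists, and 12 had an unadjusted p under 0.05. Over all genes tested, 0.018% were called and 7.91% had an unadjusted p under 0.05.

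**Figure D5:**
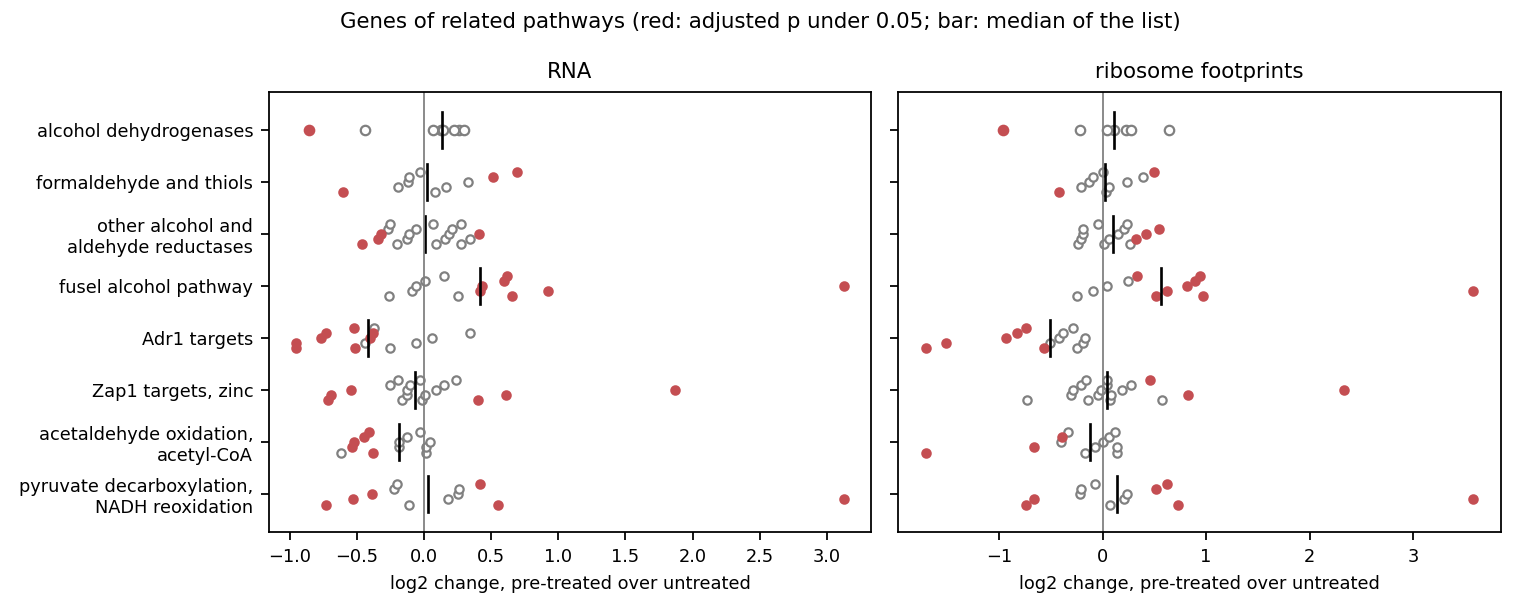
Log2 change after radicicol of the tested genes of 7 related lists and of the alcohol dehydrogenases, in RNA (left) and footprints (right); each point is a gene, red where the adjusted p is under 0.05, and bars are list medians. The point far to the right in 2 of the lists is PDC5, at 3.13 in RNA and 3.58 in footprints.

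The genes whose pattern over the 12 libraries was most like that of ADH1 were YGR201C, SSA3 and OLE1. Likeness was the root mean square difference of log2 CPM after each gene was centred within a library type, among 5070 genes tested in both types. It was 0.088 for YGR201C, 0.092 for SSA3, a cytosolic Hsp70 gene, and 0.093 for OLE1, the fatty acid desaturase gene, where the median gene had 0.49. OLE1 RNA ranged from 3013 to 3426 CPM in untreated and from 1484 to 1869 CPM in pre-treated libraries, and SSA3 RNA from 1125 to 1200 CPM and from 672 to 727 CPM. This is a description of the same libraries in which ADH1 was called.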

How the data were processed

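For each library the authors deposited a file of raw read counts. According to its header, featureCounts 1.6.2 counted stranded reads for every exon of the R64-1-1 gene set, to which a plasmid had been joined. Reads that overlapped several features or mapped to several places were not counted under those settings. The submitters' processing notes also name cutadapt 1.18, STAR 2.7.1a, SAMtools 1.9 and the build sacCer3. The counts of 7557 features were summed here to 7130 identifiers, and 6048 had a symbol in a table of RefSeq genes. A deposited table of the whole series, holding between 98.3% and 99.1% of these counts, was an alternative.

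Tests used R 4.3.3, edgeR 4.0.16 (filterByExpr at 10 counts, total at least 15, TMM scaling, robust quasi-likelihood F test) and limma 3.58.1, and DESeq2 1.42.0 as an alternative. Benjamini-Hochberg adjustment covered every gene in a test, and 0.05 was the threshold. Each model was fitted to the whole table, RNA and footprints over 6 libraries each and translational efficiency over all 12. The 3 colonies were each split over both treatments, but the labels do not tie replicate numbers to colonies, so the main tests are unpaired. The p-values in RNA and in footprints rest on the variation among 3 cultures of each treatment. In these fits the spread of each gene was drawn towards the trend over all genes tested. Small p-values thus also rest on the spread of other genes, not on the 3 cultures alone. The main efficiency test had no culture term, so it took the RNA and footprint libraries of a culture as independent. A term for each culture was an alternative. Efficiency ratios used a pseudocount of 0.5 counts and TMM over 12 libraries, and an RNA and a footprint library that share treatment and number were read as 1 culture. The code was tested on simulated data with the same spread set for all genes. Of 1.5-fold changes it recovered 37.3% in RNA, 32.8% in footprints and 7.58% in efficiency. Of 2-fold changes it recovered 82.1%, 79.1% and 46.3%. A gene that was not called may therefore still have changed by such amounts, above all in efficiency. Counting limits cover counting error only.

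The members and the 7 lists were chosen with earlier results of these data known. From each list the text names up to 4 called genes with the largest change in RNA or footprints; for a called member it names the 3 genes most like it. Promoter and protein sequences and the uniqueness of the members' sequences were not analysed here.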

Additional observations from a re-analysis of the deposited data

How the results depend on the processing

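The fall of ADH1 kept its direction and passed under each of 12 alternatives in RNA (log2 -0.91 to -0.78, highest adjusted p = 0.00012) and in footprints (-1.01 to -0.92, highest adjusted p = 9.43e-07). The alternatives were RLE and upper-quartile scaling, DESeq2, no filter, the table of the whole series, leaving out each library and a block. No other member passed in RNA under any of them, and no member passed for efficiency in those that gave an adjusted p. In footprints, ADH4 also passed with DESeq2 (0.66, adjusted p = 0.0110), and over the fits without 1 library it ranged from 0.42 to 0.85 (adjusted p from 0.00823 to 0.193). ADH5 ranged from 0.13 to 0.40 in those fits.

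Over all genes tested, the replicate numbers were not found to pair the treatments. Deviations of same-numbered libraries correlated at 0.01, 0.07 and 0.05 in RNA and at -0.14, -0.01 and -0.06 in footprints. Such correlations over all genes cannot decide whether a single gene follows the replicate number. With the replicate number as a block, the ADH4 footprint change was 0.68 (adjusted p = 0.000689), and 2 genes were called for efficiency.

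Genes called numbered 482 in RNA and 428 in footprints with DESeq2, and 407 to 743 and 442 to 667 without 1 library, in both cases fewest without pre-treated replicate 2. For efficiency they numbered 10 with DESeq2, 6 with no filter, 29 with a term for each culture and 0 to 3 without 1 culture, the 0 coming without untreated replicate 3, where 508 had an unadjusted p under 0.05. Upper-quartile scaling gave 347 higher and 411 lower in RNA, against 400 and 338, and 364 and 330 in footprints, against 434 and 247.

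Values near 0 changed sign. The RNA change of ADH6 ranged from -0.084 to 0.17 and the footprint change of ADH7 from -0.40 to 0.22 without 1 library. The footprint change of SFA1 was -0.00039 with upper-quartile factors. For efficiency, ADH3 was at 0.0016 with DESeq2 and ranged from -0.047 to 0.024 without 1 culture. ADH5 was at -0.017 with upper-quartile factors, -0.0044 with the table of the whole series and -0.0037 with the replicate block, and ranged from -0.085 to 0.077. Efficiency levels moved beyond 1 SD for ADH3 in untreated cultures (0.11 with a pseudocount of 5 and 0.11 with no centring) and, with a pseudocount of 5, for ADH1 (0.0062) and ADH7 (-0.37) in pre-treated ones. The cause of these differences was not tested. Levels per unique length, promoter motifs and paralog uniqueness were not run. Depth limits ADH2 and ADH7 most.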
